A study of Mus musculus with 5 samples.

Results

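Brown fat was compared with epididymal fat for mature microRNAs, using 2 of the 5 arrays of a tissue survey. Both tissues came from C57BL/6 mice of postnatal month 2 to 3, with no genotype change or treatment named in the labels. The brown array held RNA from brown adipose tissue and the other held RNA from epididymal adipose tissue, the white depot beside the epididymis. The remaining arrays held inguinal fat and the gastrocnemius and soleus muscles of the same strain and age, and their levels are given only where they place a microRNA. All tissues were frozen on dry ice, and 1 µg of total RNA per array was labelled for reading as Cy3. The rule took the 598 probes named for a mouse microRNA, out of 2340 rows of the deposited table, and set the normalized intensity of brown fat against that of epididymal fat. Each tissue had 1 array, and the number of animals behind each RNA is not in the labels. No difference therefore has a replicate check, no test was possible, and the only measured error is the spread of the 4 spots of each probe.

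MicroRNAs are short RNAs that guide Argonaute proteins to messenger RNAs, mostly by pairing of the seed near their 5′ end, and lower the output of those messages. Brown fat burns lipid for heat through uncoupled respiration in mitochondria, whereas epididymal fat mainly stores lipid. Brown adipocyte precursors share an embryonic lineage with skeletal muscle, and several microRNAs are known in mice to promote or restrain brown fat formation. Both depots also hold endothelial, stromal, blood and immune cells. In whole tissue, fewer cells of a type and less RNA per cell cannot be told apart. The arrays carry no messenger RNA probes, so the tissue labels could be checked only against microRNAs.

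The mature sequences below are those the comparison turns on. They come from RefSeq on build GRCm38.p6, are written 5′ to 3′, and have the seed, bases 2 to 8, in capitals. RefSeq gave a sequence for 122 of the 178 microRNAs detected on at least 1 of the 2 arrays, and for 32 of the 41 that differed at least 2-fold. The array names many microRNAs without an arm, and the arm was then taken from later naming of the same microRNA, not from the files. The first set was higher in brown fat, and shows members of the brown fat programme and muscle microRNAs. Of these, miR-206 was at least 1.83-fold higher, short of 2-fold. RefSeq gave no sequence for miR-133a, miR-1, miR-378 and miR-378*, so they are not shown.
miR-193b: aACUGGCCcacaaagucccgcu
miR-455: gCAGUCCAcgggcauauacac
miR-182: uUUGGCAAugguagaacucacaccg
miR-96: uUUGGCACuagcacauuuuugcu
miR-203: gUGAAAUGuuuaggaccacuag
miR-30e: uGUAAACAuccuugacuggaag
miR-30e*: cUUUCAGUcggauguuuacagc
miR-133b: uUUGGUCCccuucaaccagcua
miR-206: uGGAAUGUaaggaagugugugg

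The second set was lower in brown fat, and shows pairs that share a seed along with miR-200b, miR-335-5p and miR-21.
miR-200a: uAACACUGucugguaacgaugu
miR-141: uAACACUGucugguaaagaugg
miR-200b: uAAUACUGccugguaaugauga
miR-34a: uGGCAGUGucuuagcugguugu
miR-34b-5p: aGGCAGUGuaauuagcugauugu
miR-146a: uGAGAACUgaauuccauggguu
miR-146b: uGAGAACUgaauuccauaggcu
miR-221: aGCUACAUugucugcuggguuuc
miR-222: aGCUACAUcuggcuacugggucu
miR-335-5p: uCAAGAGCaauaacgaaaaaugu
miR-21: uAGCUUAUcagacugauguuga

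The third set is a pair with the same seed that lay on opposite sides of the comparison.
miR-103: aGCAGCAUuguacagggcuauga
miR-107: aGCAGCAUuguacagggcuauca

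Detection was set at 50 intensity units after background subtraction, the cut-off the authors used. Empty spots reached 1.5 units on both arrays. Negative control probes reached 6 units on the brown array and 2.5 on the epididymal array. By this rule 160 microRNAs were detected in brown fat and 157 in epididymal fat, 139 of them in both. The other two classes were 21 detected only in brown fat and 18 detected only in epididymal fat, and 420 were under the floor on both arrays. Over the 139, the log2 intensities of the arrays had a Pearson r of 0.889 and a Spearman rho of 0.871. This is a description across microRNAs, which are not independent replicates and share 2 hybridisations. Of the 139, 87 (62.6%) lay within 1.5-fold of equality.

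Of the 178 microRNAs detected on at least 1 array, 18 (10.1%) were at least 2-fold higher in brown fat and 23 (12.9%) were at least 2-fold lower. The other 137 (77.0%) were not called. Where a microRNA was under the floor on 1 array, it was set there to the lowest detected normalized value, or to its own value if that was higher, and its fold is a bound, written "at least". There were 7 such bounds among the 18 and 7 among the 23. Of the 137 not called, 112 were measured on both arrays and lay within 2-fold. Another 19 had a bound short of 2-fold, which does not show that they lie within it. The last 6, faint on 1 array and under the floor on the other, had no fold because the bound passed equality, and they enter medians at that bound. For each of the 41 past 2-fold, the 4 spots on one array did not overlap the 4 on the other. The SD of log2 over the spots of a probe had a median of 0.15, and the SE of a log2 ratio from the spots had a median of 0.12. The median log2 ratio over the 178 was -0.12, and ratios are given relative to 0.

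Under 7 other scalings, 27 of the 41 stayed past 2-fold in all and each kept its direction. The 14 that were short of the limit in at least 1 were miR-107, miR-30e, miR-203, miR-19b, miR-129-3p and miR-29b among the higher, and miR-221, miR-708, miR-146a, miR-34a, miR-331-3p, miR-103, miR-214 and miR-199b* among the lower. Of those 14, miR-199b* and miR-214 were past 2-fold in only 1 of the 7, miR-103 in 2 and miR-331-3p in 3. miR-34a and miR-129-3p were past it in 4, and the others in 5 or 6. The folds of another 14 moved by over 1.5 times, and each was smallest with the normexp background correction followed by quantile normalization. Under that setting miR-193b was at least 3.45-fold higher, miR-182 at least 2.67-fold higher, miR-200a at least 2.72-fold lower and miR-34b-5p at least 3.88-fold lower.

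**Figure D1:**
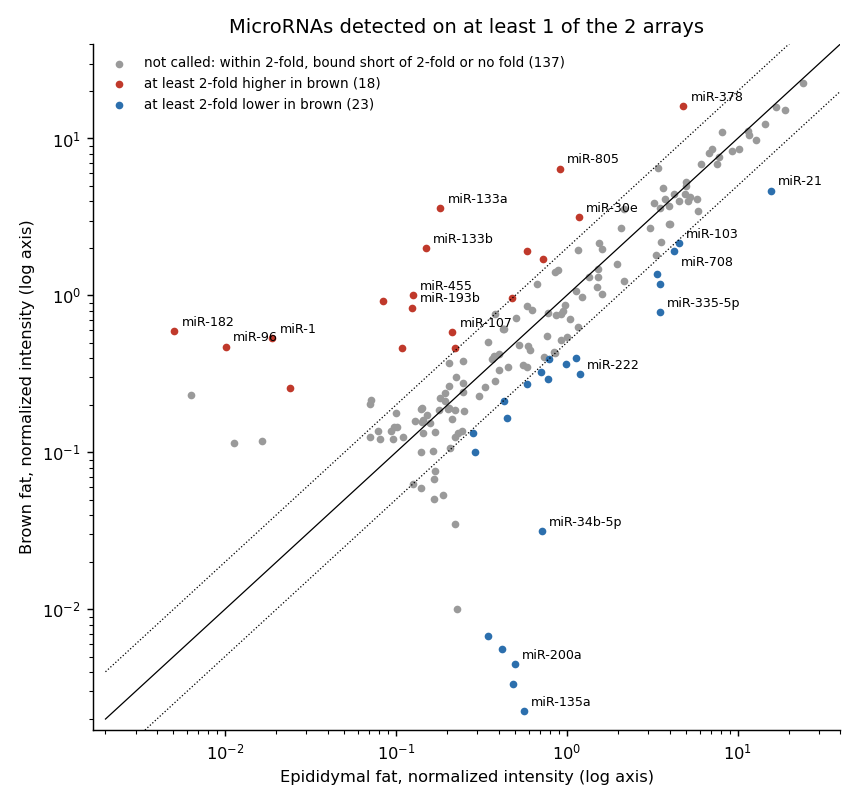
Normalized intensity of each microRNA detected on at least 1 array, brown fat (vertical) against epididymal fat (horizontal), both log axes. The solid line marks equality and the dotted lines 2-fold. The 18 red points are higher in brown fat and the 23 blue points lower. Grey points outside the dotted lines are under the detection floor on 1 array, and have a bound short of 2-fold or no fold.

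MicroRNAs of the brown fat programme were prominent among the higher ones. A list of 21 names tied to thermogenic adipocytes had 20 on the array and 16 detected, of which 9 were at least 2-fold higher in brown fat and none lower. Over all 178 the shares were 10.1% higher and 12.9% lower. Their median log2 ratio was 1.12, against -0.12 for all 178. This list and those below were drawn up with earlier results of these arrays known, so their directions are no independent evidence.

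miR-193b, which with miR-365 was reported to drive mouse brown adipocyte differentiation, read 373 units in brown fat (spots 361 to 439) and 49.5 in epididymal fat (spots 39 to 58). It was at least 6.63-fold higher in brown fat. It is encoded on chromosome 16, at chr16:13449570-13449591 on the plus strand, with miR-365 downstream in the same cluster. miR-365, which has a second copy elsewhere, read 1589.5 and 862.5 units, a log2 ratio of 0.71 that stayed under the 2-fold limit. The members of this cluster thus differed in size though not in sign. The like-named and far brighter miR-193 was even, at 10094.5 units in brown fat and 9617 in epididymal fat, a log2 ratio of -0.10. Whether the probe of miR-193 or miR-193b also binds the other's target was not tested.

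miR-455, known in mice to promote brown adipogenesis through the hypoxia pathway, read 446.5 units in brown fat (spots 415 to 476) and 50 in epididymal fat (spots 34 to 51). The fold was 7.93, or 3.99 with normexp and quantile normalization, and the epididymal value sat exactly on the detection floor. Its sequence maps to chr4:63256904-63256924, inside the collagen gene Col27a1 on the same strand. Normalized levels on the other arrays were 0.257 in inguinal fat, 0.087 in gastrocnemius and 0.079 in soleus, against 1.00 in brown fat, so brown fat was the highest of the 5. Its opposite arm, miR-455*, was faint, at 53 units in brown fat and 6.5 in epididymal fat, and has no fold.

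miR-182 and miR-96, from a cluster best known in sensory organs, were detected in brown fat and close to blank in epididymal fat. miR-182, also reported to maintain mouse brown adipocytes, read 264 units (spots 227 to 267) against 2 (spots 0 to 3), at least 4.69-fold. miR-96 read 210 units (spots 190 to 227) against 4 (spots 3 to 6), at least 3.73-fold. The bounds are small because the floor sets them, not the measured values. Their genes lie on the minus strand of chromosome 6, with mature sequences at chr6:30165962-30165986 and chr6:30169506-30169528. Their seeds, UUGGCAA and UUGGCAC, differ in the last base. The third member, miR-183, read 39 units in brown fat and 3 in epididymal fat, under the floor on both. Neither muscle carried them, with 2 units each on the gastrocnemius array and 1 and 2 units on the soleus array.

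miR-378, which lies in an intron of the coactivator gene Ppargc1b and expands brown fat when overexpressed in mice, was the second brightest microRNA in brown fat. It read 7126.5 units (spots 6646 to 7721) against 1909 (spots 1587 to 1977), a fold of 3.32. Its opposite arm, miR-378*, read 408.5 units against 33.5, at least 7.26-fold, so both arms were higher in brown fat. The muscles carried about as much miR-378 as brown fat, with 5958 units in gastrocnemius and 6074.5 in soleus.

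miR-203, an epidermal microRNA also reported to maintain mouse brown fat, read 757 units (spots 715 to 799) against 287 (spots 272 to 308), a fold of 2.34. Both arms of miR-30e, which lies within the gene Nfyc on chromosome 4, were higher. The guide arm miR-30e read 1400 units against 465.5, a fold of 2.67, and miR-30e* read 861.5 against 231.5, a fold of 3.31. The relatives miR-30b and miR-30c, known in mice to promote thermogenic genes by targeting the corepressor RIP140, were near even, with log2 ratios of 0.24 and 0.01. miR-30c is encoded close to miR-30e in the same gene and from a second locus, and the array does not separate the loci.

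The remaining called member of the list was miR-129-3p, also a neural microRNA, at 114 units against 9.5 and at least 2.03-fold. Of the members under 2-fold, miR-32 was nearest, with 529.5 units against 267 and a log2 ratio of 0.82. The ubiquitous miR-26a and miR-26b were even, with log2 ratios of -0.02 and -0.05. The 4 listed names on the array that were under the floor in both fats were miR-183, miR-328, miR-129-5p and miR-92a.

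**Figure D2:**
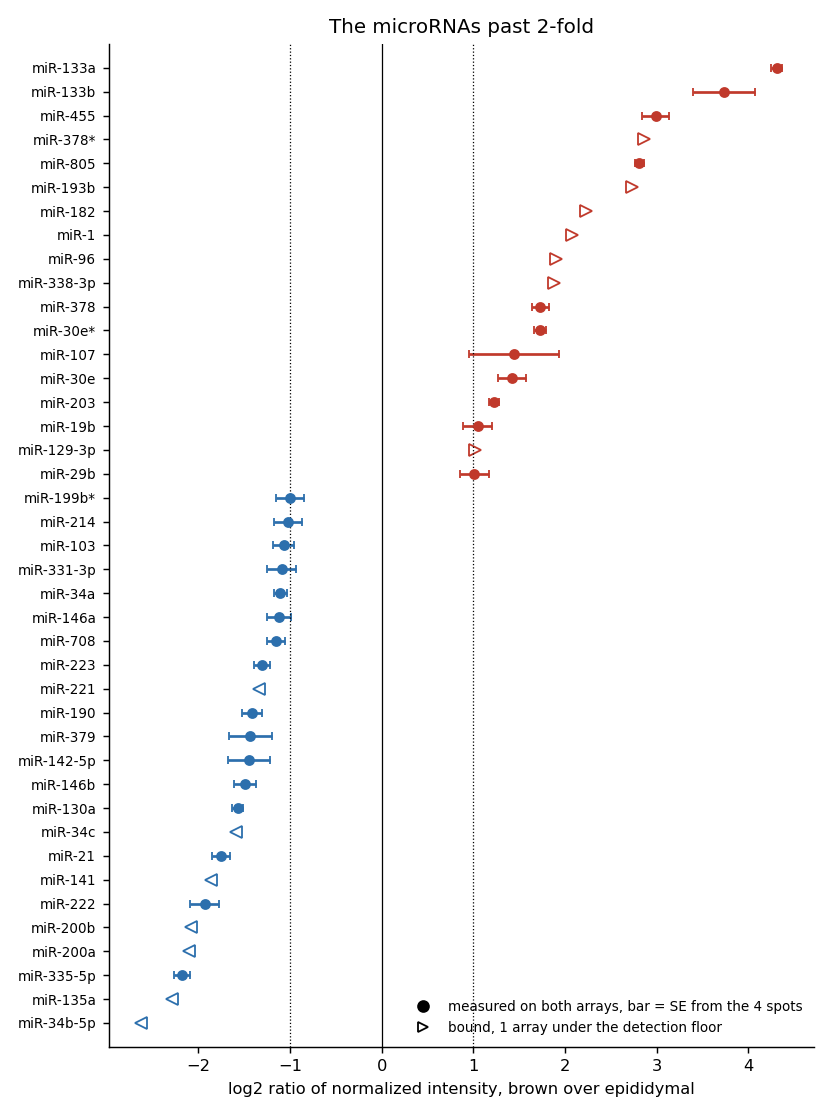
log2 ratio of normalized intensity, brown over epididymal fat, for the 41 microRNAs past 2-fold. Filled points were measured on both arrays, with bars for the SE from the 4 spots, and open triangles are bounds. miR-133a at 4.31 and miR-34b-5p at -2.63 mark the ends.

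The largest ratios belonged to muscle microRNAs. miR-133a, which in mice restrains brown adipocyte formation by repressing the regulator Prdm16 and is abundant in striated muscle, read 1605 units in brown fat (spots 1470 to 1647) and 72 in epididymal fat (spots 64 to 76). The fold was 19.8. miR-133b read 891 units (spots 753 to 1056) against 59.5 (spots 25 to 62), a fold of 13.3 with a spot SE of 0.34 in log2. With the normexp background correction and quantile normalization, these folds were 11.1 and 6.77. These microRNAs are near-identical in sequence, and whether each probe also binds the other's target was not tested.

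miR-1, a muscle microRNA often transcribed with miR-133a, read 237 units in brown fat and 7.5 in epididymal fat, at least 4.21-fold. miR-206, specific to skeletal muscle and encoded beside miR-133b on chromosome 1, read 103 units (spots 94 to 110) against 2.5 (spots 2 to 4), at least 1.83-fold. The spots of both were far apart between the arrays, and the floor sets the bounds of both miR-1 and miR-206.

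The striated muscle list had 9 members on the array and 5 detected in either fat, 3 of them at least 2-fold higher and none lower, against 10.1% and 12.9% over all 178. Its median log2 ratio was 2.07. The summed normalized level of all 9 was 6.63 in brown fat and 0.444 in epididymal fat, against 0.527 in inguinal fat, 37.1 in gastrocnemius and 55.2 in soleus. As a share of the gastrocnemius level, brown fat carried 32.2% for miR-133b, 25.4% for miR-133a, 14.2% for miR-1 and 3.15% for miR-206. The share was thus lower for miR-206 than for the miR-133 members. miR-133a* read 23 units in brown fat and 1570 in gastrocnemius, a share of 1.34%. The myosin-linked miR-208b, bright in soleus at 7479.5 units, read 32 in brown fat and 0.5 in epididymal fat, and miR-499 read 6.5 and 3. Both were under the floor in both fats, and gastrocnemius read only 239.5 and 32 units for them. Brown fat carried 12.2% of the gastrocnemius level for miR-208b, 18.6% for miR-499 and 11.7% for miR-486. As shares of the soleus level these were 0.449%, 1.02% and 33.8%. The part of adhering muscle in these ratios was not tested.

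Of 14 names on a list of reported brakes on thermogenic fat, 12 were detected, with 2 higher, both of them miR-133 members, 2 lower and a median log2 ratio of -0.18. These counts are near the background of 10.1% higher and 12.9% lower over all 178. miR-27a and miR-27b, which in mice target Prdm16 and Pparg, had more signal in brown fat, at 630.5 against 336.5 units and 90 against 28 units. The log2 ratio of miR-27a was 0.74, within 2-fold, and that of miR-27b was at least 0.68, a bound that does not reach the limit. miR-34a, which limits FGF21 signalling and browning in mice, read 121.5 units (spots 109 to 134) in brown fat and 232 (spots 218 to 244) in epididymal fat, 2.15-fold lower in brown. miR-214 read 94.5 against 170.5 units, 2.03-fold lower. miR-125b-5p, miR-93 and let-7i were within a log2 ratio of -0.32 to -0.13.

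miR-805 read 2859 units in brown fat (spots 2722 to 2976) and 361.5 in epididymal fat (spots 323 to 368), a fold of 7.03. Its normalized level was 6.41 in brown fat, 4.24 in gastrocnemius and 3.32 in soleus, against 1.07 in inguinal and 0.913 in epididymal fat. The white depots were thus the low arrays for this probe. RefSeq gave no mature sequence for miR-805, and what its probe binds was not tested.

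**Figure D3:**
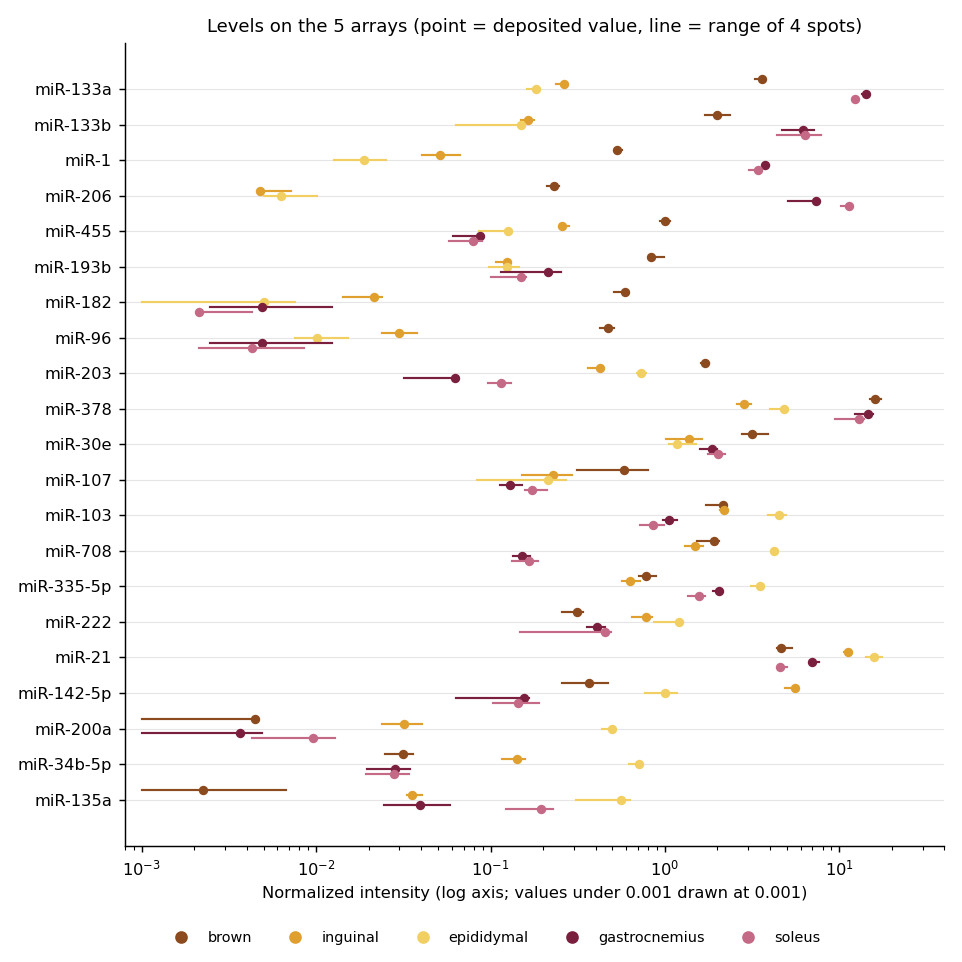
Normalized intensity (log axis) on the 5 arrays for 21 microRNAs named in the text. Points are the deposited values and lines span the 4 spots. miR-182 and miR-96 stand high on the brown array alone, miR-133a is highest in the muscles, and miR-200a and miR-34b-5p are highest on the epididymal array.

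Epithelial microRNAs were among those lower in brown fat. The miR-200 family keeps cells epithelial by repressing the factors Zeb1 and Zeb2. miR-200a read 2 units in brown fat (spots 0 to 2) and 197 in epididymal fat (spots 173 to 205), at least 4.31-fold lower in brown. miR-200b read 1.5 against 193 units, at least 4.22-fold lower. miR-141 read 2.5 against 166.5 units, at least 3.64-fold lower. miR-200c read 4.5 against 90 units, and its bound of 1.97-fold missed the limit. In brown fat none of these read above the highest negative control.

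The family comes from a pair of clusters, miR-200b and miR-200a on chromosome 4 and miR-200c and miR-141 on chromosome 6, all on the minus strand. Each cluster had a member past 2-fold. miR-200a and miR-141 share the seed AACACUG, and miR-200b and miR-200c share AAUACUG. miR-200a and miR-141 differ by C17A and U22G, with positions counted from the 5′ end and the base of miR-200a first. Of the 10 epithelial names on the array 4 were detected, and all of these were in epididymal fat. miR-429 read 32 units in epididymal fat and 0 in brown fat, and miR-205, a marker of stratified epithelium, read 7.5 and 1, both under the floor.

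miR-34b-5p and miR-34c, which are encoded together and are abundant in ciliated epithelium and testis, followed the same pattern. miR-34b-5p read 14 units in brown fat (spots 11 to 16) and 282.5 in epididymal fat (spots 245 to 289), at least 6.17-fold lower in brown and the lowest bound of all. Its opposite arm, miR-34b-3p, was under the floor on both arrays, at 29 units in brown fat and 39.5 in epididymal fat. miR-34c read 3 units against 137.5, at least 3.01-fold lower. miR-34b-5p shares the seed GGCAGUG with miR-34a. Their related miR-449a read 11 units in epididymal fat and 1 in brown fat. The 7 testis microRNAs of the list were under the floor on both arrays, at -0.5 to 19.5 units in epididymal fat and 1.5 to 44.5 in brown fat, where miR-883a-5p was highest on each array. Inguinal fat read 13.5 units for miR-200a and 60 for miR-34b-5p, below epididymal fat for both.

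miR-135a read 1 unit in brown fat (spots 0 to 3) and 223 in epididymal fat (spots 122 to 251), at least 4.87-fold lower in brown. Soleus read 90.5 units, and inguinal fat and gastrocnemius read 15 and 16. The summed normalized level of the 10 epithelial names was 0.168 in brown fat, 0.348 in inguinal fat and 1.85 in epididymal fat. For the 14 ciliated and testis names the sums were 0.314, 0.325 and 1.35. The part of adhering epididymal tissue in these differences was not tested.

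The leukocyte microRNAs were mostly lower in brown fat. The list had 13 names on the array and 8 detected, of which 5 were at least 2-fold lower and none higher, with a median log2 ratio of -1.21. Over all 178 detected, 12.9% were lower and 10.1% higher. Its summed normalized level was 11.4 in brown fat and 28.6 in epididymal fat, and 37.3 in inguinal fat. miR-21, broadly expressed and abundant in macrophages and activated fibroblasts, made up much of that signal. It read 2074 units in brown fat (spots 1965 to 2368) and 6218.5 in epididymal fat (spots 5596 to 6988), 3.37-fold lower in brown. It was the fourth brightest microRNA in epididymal fat and lies in the gene Vmp1 on chromosome 11.

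miR-223, a myeloid microRNA, read 609.5 units (spots 525 to 676) against 1341 (spots 1324 to 1499), 2.48-fold lower. miR-142-5p, found throughout blood cells, read 163 units against 394.5, 2.72-fold lower, and its partner arm miR-142-3p read 1542.5 against 2326.5, a log2 ratio of -0.76 within 2-fold. miR-146a and miR-146b, induced by NF-kB and sharing the seed GAGAACU, were 2.17-fold and 2.81-fold lower. They are encoded on chromosomes 11 and 19, and differ by G18A and U21C, with the base of miR-146a first.

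The lymphocyte microRNA miR-150 went the other way, at 166.5 units in brown fat and 81.5 in epididymal fat, a log2 ratio of 0.86. miR-155, miR-342-3p and miR-511 were under the floor in both fats. miR-181a, also a member, read 127 units against 150, a log2 ratio of -0.41. The red cell microRNAs miR-144 and miR-451 were near even, with log2 ratios of 0.25 and -0.14, and the sign of that list's median turned between scalings.

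Of 10 stromal microRNAs on the array 9 were detected, all with a log2 ratio below 0, 2 of them at least 2-fold lower, and their median was -0.85. Those 2, miR-214 and miR-199b*, were past 2-fold in only 1 of the 7 other scalings. Over all 178, 12.9% were lower and the median was itself below 0, at -0.12. miR-214 was given above. miR-199b*, a mesenchymal microRNA, read 176 units against 313.5, 2.01-fold lower and just past the limit. The miR-199a-3p/miR-199b probe read 244 against 397.5 and miR-199a-5p read 47.5 against 82.5, with log2 ratios of -0.87 and a bound of -0.85. miR-214 and a copy of miR-199a on chromosome 1 are encoded in the transcript Dnm3os. Another copy of miR-199a lies on chromosome 9, and the array does not separate the loci. The smooth muscle microRNAs miR-143 and miR-145 were close to even at -0.15 and -0.29. The endothelial pair miR-126-3p and miR-126-5p, from the gene Egfl7, had log2 ratios of 0.44 and 0.49, within 2-fold. The other detected member of the endothelial list, miR-10a, went the other way, at 1898 units against 2084 and a log2 ratio of -0.31.

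**Figure D4:**
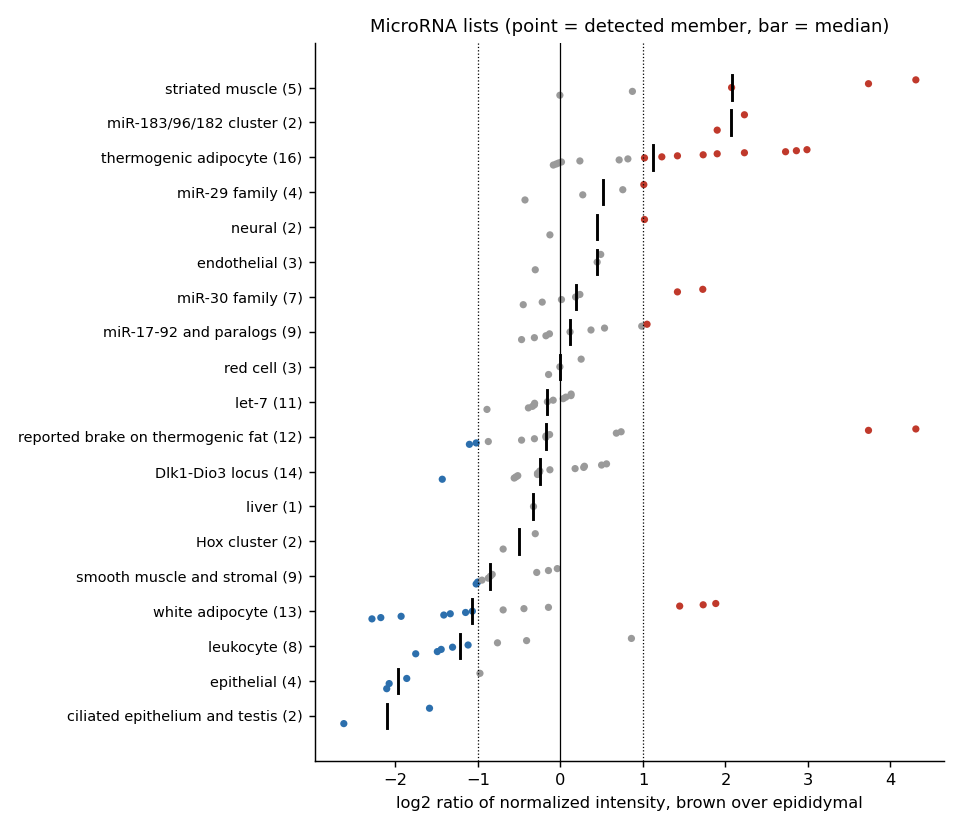
log2 ratio, brown over epididymal fat, of the detected members of each list, with the number detected in brackets and the median as a bar. Lists share members, bounds are drawn at the bound, and dotted lines mark 2-fold. Striated muscle has a median of 2.07, thermogenic adipocyte 1.12, leukocyte -1.21 and epithelial -1.97.

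MicroRNAs linked to white fat were at least 2-fold lower in brown fat in 7 of 13 detected members and higher in 3, against 12.9% and 10.1% over all 178. Their median log2 ratio was -1.07. This list too was drawn up with earlier results of these arrays known, so its direction is no independent evidence. The 3 higher were miR-107, miR-338-3p and miR-378, which is also on the thermogenic list. miR-335-5p, encoded within the imprinted gene Mest, whose expression in mice follows white fat expansion, had the lowest ratio of any microRNA measured on both arrays. It read 347 units in brown fat (spots 317 to 398) and 1395 in epididymal fat (spots 1239 to 1440), 4.53-fold lower in brown. Inguinal fat was also low, with a normalized level of 0.633 against 0.778 in brown and 3.52 in epididymal fat. Both muscles were above brown and inguinal fat, at 2.03 in gastrocnemius and 1.56 in soleus.

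miR-221 and miR-222, reported to be high in obese fat and to repress the cell cycle inhibitor p27, are encoded together on the minus strand of the X chromosome and share the seed GCUACAU. miR-222 read 140 units (spots 114 to 152) against 474.5 (spots 342 to 504), 3.82-fold lower in brown. miR-221 read 44.5 units against 115.5, at least 2.52-fold lower. For both, inguinal fat lay between brown and epididymal fat, at normalized levels of 0.779 for miR-222 and 0.215 for miR-221. The mature sequences differ at 12 positions outside the seed. Binding of either probe to the other's target was not tested.

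miR-103 and miR-107, which dampen insulin sensitivity in mice, share the seed GCAGCAU and differ only by G22C, with the base of miR-103 first. miR-103 read 961 units in brown fat (spots 764 to 1002) and 1790 in epididymal fat (spots 1548 to 1944), 2.10-fold lower in brown. Its normalized level in inguinal fat, 2.17, was close to the 2.16 of brown fat. miR-107 read 260.5 units in brown fat (spots 140 to 358) and 85 in epididymal fat (spots 33 to 107), 2.72-fold higher in brown. Over the other scalings the fold went down to 1.69 for miR-103 and 1.96 for miR-107, with the directions kept. The spots of the arrays were apart for each, but miR-107 had the widest spread of the pair, with a spot SE of 0.49 in log2 against 0.12 for miR-103. They lie within pantothenate kinase genes, miR-107 in Pank1 and the copies of miR-103 in Pank2 and Pank3. Whether a probe for one also binds the other was not tested.

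miR-708, within Tenm4 on chromosome 7, read 850 units against 1676, 2.22-fold lower in brown. Its normalized level was 4.23 in epididymal, 1.91 in brown and 1.48 in inguinal fat, and 0.152 and 0.167 in the muscles, so all the fat arrays were above the muscle arrays. miR-190, within Tln2, read 130.5 units against 309, 2.67-fold lower. Its normalized level was highest in gastrocnemius, at 0.945 against 0.780 in epididymal fat and 0.510 in soleus. Inguinal fat, at 0.266, was close to brown fat, at 0.293. miR-130a, known to repress Pparg and adipogenesis, read 523.5 against 1383, 2.97-fold lower. miR-338-3p, within Aatk, was on the other side, with 207.5 units against 43 and at least 3.69-fold higher in brown. Inguinal fat read 397 units for it, above brown fat. Of the same list, miR-143, miR-148a and miR-10b had log2 ratios of -0.15, -0.44 and -0.70.

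The remaining microRNAs past 2-fold were few. miR-29b, whose family represses collagens, read 428.5 units against 189, 2.01-fold higher, and its relatives miR-29c and miR-29a had log2 ratios of 0.76 and 0.27. miR-19b, of the growth-promoting miR-17-92 cluster, read 205 against 88, 2.07-fold higher. miR-19a, which differs from it by U11C with the base of miR-19a first, had a log2 ratio of 0.98, and miR-17 and miR-20a of the same chromosome 14 cluster had 0.37 and 0.53. miR-379, of the imprinted Dlk1-Dio3 locus, read 74 units against 177.5, 2.70-fold lower. It was the only one of 14 detected members of that locus past 2-fold, against 10.1% higher and 12.9% lower over all 178. miR-331-3p read 59.5 against 112.5, 2.13-fold lower. On the higher side miR-29b was just past the limit, at a log2 ratio of 1.01, and miR-19a just short of it, at 0.98. On the lower side miR-199b* was just past it, at 2.01-fold, and miR-24-2* just short of it, at a log2 ratio of -0.99.

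Most bright microRNAs did not separate the depots. The 10 brightest on each array made 12 names, 8 of them on both lists, and 10 of the 12 were within 2-fold. The exceptions were miR-378 and miR-21. Among all 178 microRNAs detected on at least 1 array, 77.0% were not called, so the share among the bright names was near the background. miR-193 was the brightest on both arrays, at 10094.5 units in brown fat and 9617 in epididymal fat. None of the 11 detected let-7 members, broad repressors of growth genes, was past 2-fold, with let-7e lowest at -0.89. Over all 178, 10.1% were higher and 12.9% lower. The median of let-7 was -0.16 and that of the 7 detected miR-30 members 0.18, and both medians changed sign between scalings, as did that of miR-17-92.

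Sequence families were mixed. The microRNAs with a sequence formed 23 seed families of 2 or more detected members. The miR-200a pair, miR-146, miR-221 and miR-34a families had both members lower, whereas the GCAGCAU family was split. The median GC content was 43.2% for 12 higher, 40.9% for 20 lower and 45.5% for 90 not called, each with a median length of 22 bases. Both arms of a precursor could be measured on both arrays for 13 precursors. The log2 ratios of the arms had the same sign in 8 of these and differed by a median of 0.31, with the widest gap, 0.70, for miR-29a.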

How the data were processed

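MicroRNA was measured on 1-colour miRCURY arrays, 1 per tissue. The authors' files hold, per the file headers, spot intensity, the median of 4 background-subtracted spots per probe, a normalized intensity and the ratio (fold) of each pair of arrays. The normalized intensity is the background-subtracted value divided by 1 number per array, 445.75 for brown and 396 for epididymal fat. The spot medians gave back the deposited values with a largest gap of 0. The scanner software is not given in the sources used here.

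Log2 ratios of deposited normalized intensities were computed in Python 3.11.15 with pandas 2.3.3, and limma 3.58.1 was used for normexp. The call was a fixed size, 2-fold; no test was run because each side had 1 array. The ratio rule was tested on simulated data. Arrays give no depth, so their number limits the precision. Named microRNAs were the 15 highest and 15 lowest past 2-fold, the 10 brightest on each array and members of 19 lists; the other arm and cluster members could be added. Others past 2-fold (miR-708, miR-34a and the like) are list members, except miR-331-3p, named after its values were seen. The members, lists and rules were chosen with earlier results of these data known. Alternatives covered scaling, background, the floor, the fold limit and the spots.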

Additional observations from a re-analysis of the deposited data

Results flagged for a closer look

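Some probes outside the comparison gave signal above the controls. Of the probes for a mouse herpesvirus, with no infection named in the labels, mghv-miR-M1-8 read 197 units in brown fat and 202 in epididymal fat, and mghv-miR-M1-4 read 62.5 units in brown fat. The table also holds 1258 probes with an identifier but no microRNA name, of which 172 were detected in brown fat and 154 in epididymal fat. Of the 188 of them with a ratio, 18 were at least 2-fold higher in brown fat and 8 lower, 13.8% in all. Among the 178 named microRNAs, 10.1% were higher and 12.9% lower. A further 28 rows with neither name nor identifier were left out. No outlier among samples could be looked for with 1 array per tissue.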

How the results depend on the processing

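No paired analysis was possible because a single array stood for each depot. Against 18 higher and 23 lower microRNAs as reported, the split was 13 and 43 with spike-in scaling, 22 and 16 with no scaling, and 20 and 17 with the median ratio set to 0. These settings moved the median log2 ratio by -0.42, 0.17 and 0.12, and normexp with quantile normalization moved it by -0.11. A fold limit of 1.5 gave 30 higher and 43 lower, and a limit of 3 gave 12 higher and 9 lower. Using only probes detected on both arrays gave 11 higher, since it drops the bounds. In every one of the 7 scalings, 12 microRNAs stayed higher and 15 stayed lower past 2-fold. The fold of 14 of the 41 moved by over 1.5 times in at least 1 scaling; under normexp with quantile normalization miR-455 was 3.99-fold, miR-378* at least 3.74-fold and miR-193b at least 3.45-fold higher. With a detection floor of 100, the bound of miR-129-3p turned to a log2 ratio of -0.15, because the floor then nearly equals its signal. For the 114 named microRNAs, 1457 of 1766 alternative values lay within the spot SD and 308 moved further. Settings that changed only the floor or the values under it leave brighter microRNAs as they were. Part of the 1457 was thus fixed in advance, and the spot SD is wider than the SE from the spots. Leaving out each spot position gave 16 to 18 higher and 22 to 26 lower. Small-RNA controls detected on both arrays had a median log2 ratio of -0.30 over 5 probes, and SNORD2 was at -1.02. Signal near the floor limits the bounds, and the cause of the other changes was not tested.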
